A study of Homo sapiens with 32 samples.

Results

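The MEF2 genes are MEF2C, MEF2A, MEF2B and MEF2D, 4 of the 19974 protein-coding genes of the RefSeq table. They were taken by name as transcription factors that p38 MAP kinase acts on, and MEF2C was chosen by its island coverage, which fell with the EZH2 inhibitor. Its coverage with and without that inhibitor is therefore described below without a test. The libraries came from the established human line MDA-MB-231, a model of triple-negative breast cancer, and were immunoprecipitated for H3K27me3 by ChIPmentation, in which a transposase adds the sequencing adapters while the chromatin is still on the beads. There were 4 groups of 4 libraries: untreated cells (control), cells given the EZH2 inhibitor named EPZ in the labels, cells given a p38 inhibitor (P38i), and cells given EPZ with P38i (combo), with a treatment of 24 h. The labels give no dose, name no vehicle for the controls, and do not say whether replicates were separate cultures, so p-values measure only the spread between these libraries, which may be technical.

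MEF2 proteins bind DNA through an amino-terminal MADS box and an adjoining MEF2 domain, and they switch between repression, when class IIa histone deacetylases are bound, and activation, when kinases release them. p38 phosphorylates MEF2A and MEF2C in the activation domain and raises their activity. MEF2C is known for its roles in heart, muscle, neurons, bone and lymphocytes, MEF2A and MEF2D are expressed widely, and MEF2B is best known in germinal centre B cells. EZH2 is the catalytic subunit of Polycomb repressive complex 2, which places H3K27me3, and CpG-rich gene starts are its usual sites of recruitment.

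What was deposited for each library is a list of islands, stretches called as enriched, with a start and an end and no score or read count. Libraries held 53290 to 85194 islands over 474 to 674 Mb. Read depth is unknown, so an absent island shows only that none was called. A gene's coverage is the percent of the gene and 2.5 kb on each side that lies in islands. Of 12 mesenchymal and basal genes typical of such a line (VIM, CD44, EGFR and others) 11 carried no island in any of the 16 libraries, and MSN had a mean coverage of 3.59%. Of all 19974 protein-coding genes 13584 carried none, and of 12 luminal genes 8 (GATA3, ERBB3, CDH1, KRT8, KRT18, KRT19, XBP1 and TFF3). Of the other luminal genes, PGR, the progesterone receptor, was covered at 95.4% on average. FOXA1 was covered at 56.6%, ESR1, the oestrogen receptor, at 10.2% and TFF1 at 0.70%. These genes are named after their values were seen. Islands do not measure expression, so these values do not identify the cells by their RNA.

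MEF2C (chromosome 5, 88717117 to 88904105 on GRCh38, minus strand) was the 1 MEF2 gene with islands over its window. MEF2A (chromosome 15, 99565417 to 99716488), MEF2B (chromosome 19, 19145567 to 19170263) and MEF2D (chromosome 1, 156463727 to 156500775) had a coverage of 0 in all 16 libraries, also with a flank of 5 kb. With the flank of 2.5 kb, 13584 of the 19974 protein-coding genes had a coverage of 0 in all 16. The RefSeq promoter table matched all 4 genes and gives 12 start sites for them, 7 of which belong to MEF2C. No island in any library lay over any of the 12 start sites. The 250 bases before 4 of these starts are shown because they set the sequence of the starts beside the position of the islands, with each CG in capitals. They are the CG-rich MEF2C start 20.9 kb inside the gene, the MEF2C start that lay nearest to an island, a MEF2C start without any CG, and the outermost start of MEF2A.
MEF2C, CG-rich start, chr5:88883185-88883434, minus strand: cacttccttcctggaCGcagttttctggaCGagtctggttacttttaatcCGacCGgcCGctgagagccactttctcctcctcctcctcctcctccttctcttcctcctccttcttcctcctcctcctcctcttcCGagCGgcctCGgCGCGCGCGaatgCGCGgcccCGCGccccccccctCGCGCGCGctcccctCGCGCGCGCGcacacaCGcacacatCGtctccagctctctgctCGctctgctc
MEF2C, start nearest to an island, chr5:88884537-88884786, minus strand: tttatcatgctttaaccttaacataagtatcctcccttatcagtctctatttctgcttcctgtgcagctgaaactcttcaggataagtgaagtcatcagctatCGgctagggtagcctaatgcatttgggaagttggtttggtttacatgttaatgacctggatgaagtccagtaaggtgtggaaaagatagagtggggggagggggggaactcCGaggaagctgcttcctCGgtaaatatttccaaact
MEF2C, start without CG, chr5:88823928-88824177, minus strand: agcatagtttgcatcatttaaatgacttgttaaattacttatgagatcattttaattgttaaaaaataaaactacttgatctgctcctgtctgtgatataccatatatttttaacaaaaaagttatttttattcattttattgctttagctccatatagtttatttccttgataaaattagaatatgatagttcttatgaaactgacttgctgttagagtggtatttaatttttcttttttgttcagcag
MEF2A, outermost start, chr15:99565167-99565416, plus strand: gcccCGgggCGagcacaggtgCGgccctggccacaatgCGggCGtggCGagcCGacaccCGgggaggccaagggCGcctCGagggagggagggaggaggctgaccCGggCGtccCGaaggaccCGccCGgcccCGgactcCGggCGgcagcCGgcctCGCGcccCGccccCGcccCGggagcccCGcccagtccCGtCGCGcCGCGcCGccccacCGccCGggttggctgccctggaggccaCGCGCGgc

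The first MEF2C sequence holds 28 CG, a number that 15.9% of the 34961 RefSeq promoter windows reach, where the median is 11. The second holds 3 and the third 0. The MEF2A sequence holds 36, a number that 4.87% of all windows reach, and MEF2B has 21. MEF2D, with 3, has a CG-poor window at the single start listed for it, at 156490687. That start lies inside the gene, whose span on the minus strand begins at 156500775, where no window was listed. At the CG-rich MEF2C start the nearest island lay from 0.784 to 175 kb away over the 16 libraries, with a median of 11.2 kb. At the start shown second it lay from 0.264 to 173 kb away, with a median of 9.86 kb. Islands came within 5 kb of each of these starts in 6 libraries, 5 of the 8 without the EZH2 inhibitor and 1 of the 8 with it. Both CG-rich and CG-poor starts of the MEF2 genes were thus clear of islands. For MEF2A, MEF2B and MEF2D this follows from their coverage of 0. The share of all promoter windows clear of islands was not counted, so nothing is read about CG content. These sequences are RefSeq's, on GRCh38.p14.

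Coverage of MEF2C was at most 23.4% in every library and lower on average with the EZH2 inhibitor. In control it was 13.7% in replicate 1, 23.4% in replicate 2, 11.9% in replicate 3 and 6.03% in replicate 4, a mean of 13.7% ± 7.23 (SD, n = 4). In EPZ it was 1.15%, 2.19%, 0 and 6.97% in replicates 1 to 4, a mean of 2.58% ± 3.06 (n = 4). EPZ replicate 4 lay above control replicate 4, so the groups overlapped by this pair. In P38i it was 23.2%, 12.5%, 19.1% and 8.95%, a mean of 15.9% ± 6.41 (n = 4). In combo it was 2.19%, 2.40%, 8.23% and 1.35%, a mean of 3.54% ± 3.16 (n = 4). All 4 combo libraries lay below all 4 P38i libraries, with combo replicate 3 close to P38i replicate 4, an order that 10% of the 4105 tested genes showed. The difference was -11.2 points between EPZ and control and -12.4 points between combo and P38i. Over both, the 8 libraries with the EZH2 inhibitor stood at 3.06% ± 2.93 and the 8 without it at 14.8% ± 6.43, a difference of -11.8 points.

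**Figure D1:**
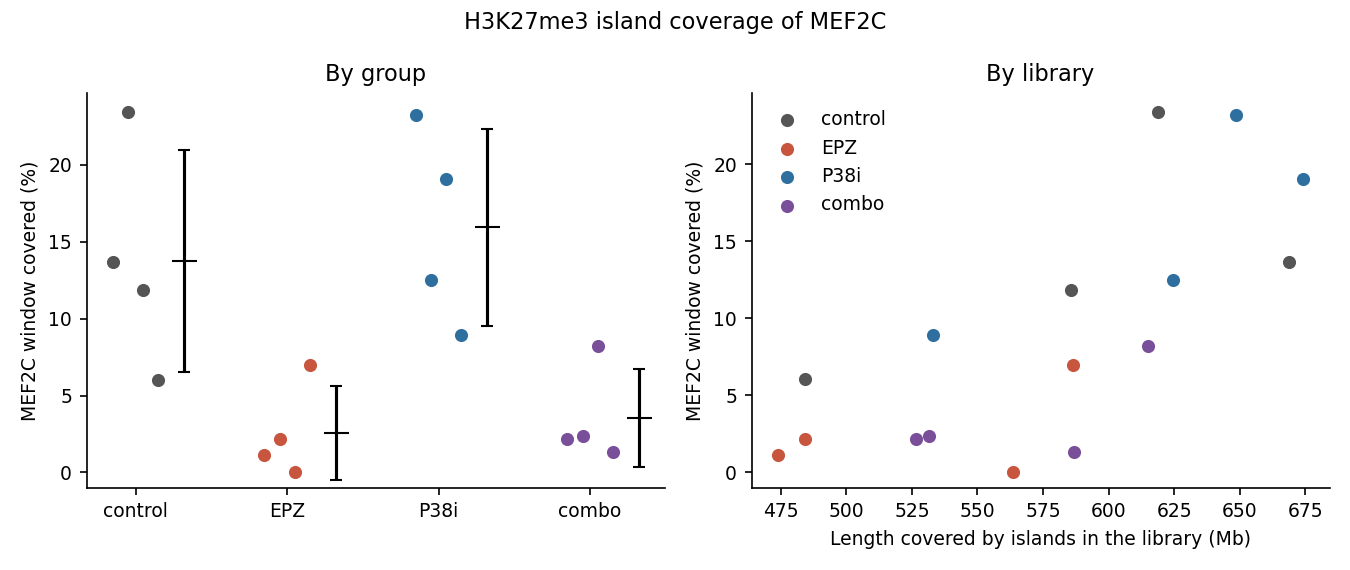
Left, percent of the MEF2C window covered by islands in each library (points), with the mean and SD of each group of 4 (bars). Right, the same percent against the length that islands covered in the whole library, in Mb. The EPZ and combo libraries lie between 0 and 8.23%, the control and P38i libraries between 6.03 and 23.4%.

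That contrast is the one that chose MEF2C, and nothing is read from its place among other genes. Over the 4105 genes tested, 15.6% were called lower and 0.877% higher with the EZH2 inhibitor, 642 and 36 genes. That split became 260 lower and 127 higher with covered length as a covariate, and 96 and 72 with lists of equal covered length. All tested genes together had a median difference of -4.84 points, or -1.21 points under the covariate. Libraries with the inhibitor also covered less of the genome, 546 ± 50.7 Mb against 605 ± 67.1 Mb (n = 8). Across the 16 libraries MEF2C coverage moved with covered length (Pearson's r = 0.74), within the 8 libraries without the inhibitor (r = 0.73) and within the 8 with it (r = 0.59); these are descriptions, since the libraries fall into treatment groups. With covered length as a covariate the MEF2C difference was -8.36 points. With each list shortened to its widest islands, up to the covered length of the smallest library, it was -2.73 points, and control replicate 1, with 13.7% before, had none left over MEF2C. MEF2C entered the fit through the libraries where it was high: its mean over all 16 was 8.95%, above the minimum of 5%, and its mean with the inhibitor was below it.

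The p38 inhibitor, which the choice of MEF2C did not use, gave no detectable change in its coverage. P38i differed from control by 2.19 points (95% interval -5.80 to 10.2, adjusted p = 0.915 in limma over all tested genes, n = 4 per group). Combo differed from EPZ by 0.96 points (-7.03 to 8.96, adjusted p = 0.976). Both groups were under the minimum of 5% on average, at 3.54% and 2.58%, and the interval uses the spread of all 4 groups. Its lower end is a fall larger than the whole coverage in EPZ, so this comparison could hardly show a fall. The main effect and the interaction include these groups as well. Over the 8 libraries with the p38 inhibitor against the 8 without it, 9.74% ± 8.11 against 8.16% ± 7.88, the difference was 1.58 points (-4.08 to 7.23, adjusted p = 0.816). The interaction, the p38 inhibitor's difference with EPZ minus that without it, was -1.22 points (-12.5 to 10.1, adjusted p = 1). Each interval reaches to both sides of 0, so the values do not show that the p38 inhibitor left MEF2C as it was. The direction was not stable either: when covered length entered the fit, the main effect on MEF2C was -0.43 points and combo minus EPZ -1.25 points, while the median main effect over all genes tested went from 3.04 to 0.821 points. Leaving out control replicate 4 or P38i replicate 1 turned P38i minus control to -0.38 or -0.24 points, and leaving out combo replicate 3 turned combo minus EPZ to -0.60 points. The share of tested genes called was 0.292% for P38i against control (12 genes), 0% for combo against EPZ (0 genes by limma, 224 at an unadjusted p under 0.05, and 3 genes in a fit of these groups alone), 0.122% for the p38 main effect (5 genes) and 0.0487% for the interaction (2 genes).

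The islands over MEF2C were few and scattered. The 16 libraries held 59 islands over the gene window, 1.0 to 13.2 kb wide with a median of 4.60 kb. Over whole libraries the median island width was 3.4 to 7.4 kb. Control libraries had 5, 7, 5 and 4 of them in replicates 1 to 4, and P38i libraries 8, 7, 7 and 4. EPZ libraries had 1, 1, 0 and 3, and combo libraries 1, 2, 2 and 2. The 8 libraries without the EZH2 inhibitor thus held 47 islands with a median width of 4.80 kb, and the 8 with it 12 with a median of 3.60 kb. In windows of 200 bp, 50.7% of the gene window was in no island of any library, 48.9% was in an island of at least 1 library without the inhibitor, and 16.4% in an island of at least 1 library with it. Of the 158 windows covered with the inhibitor, 4 were not also covered in some library without it.

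Some places in the gene recurred. Stretches covered in at least 4 of the 16 libraries were listed after the islands had been seen, and they are given without a test. The most frequent, at 88765601 to 88774200, lies 130 to 139 kb downstream of the outermost start and met an island in 11 libraries: 3 control, 4 P38i, 1 EPZ and 3 combo. The next, at 88714601 to 88722600, spans the 3′ end of the gene, where the antisense RNA MEF2C-AS2 overlaps it, and met an island in 9 libraries, 3 control, 4 P38i, 1 EPZ and 1 combo. A stretch at 88752201 to 88756600 was met in 7 libraries, 5 without and 2 with the EZH2 inhibitor. Nearest to the CG-rich start, the stretch at 88886401 to 88888600 was met in 6 libraries, 5 without and 1 with the inhibitor. A stretch at 88796601 to 88798400 was met in 5 libraries without the inhibitor and in 0 with it. The remaining 88794401 to 88795000 and 88852001 to 88852200 were each met in 4 libraries, 3 without and 1 with the inhibitor. No 200 bp window of the gene was covered in more than 10 libraries. Introns and exons are not assigned here, since the gene table gives spans and start sites only, and islands have no strand, so islands shared with an antisense gene cannot be given to either.

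**Figure D2:**
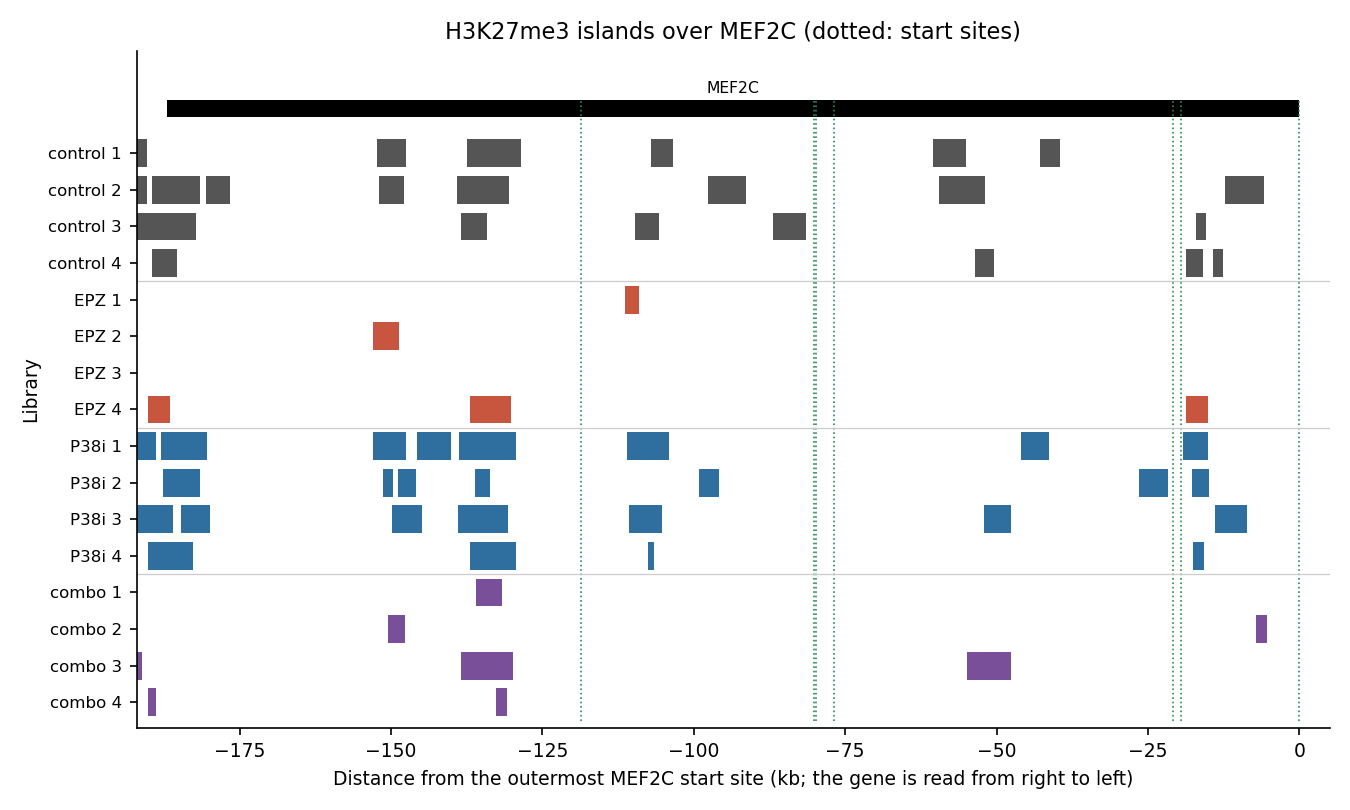
Islands (blocks) over MEF2C in each of the 16 libraries, by distance in kb from the outermost start site, with the 7 start sites as dotted lines. Blocks are fewer in the 8 EPZ and combo libraries (12 islands) than in the 8 control and P38i libraries (47 islands), and no block crosses a dotted line.

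Islands around MEF2C were unevenly spread. Within 500 kb of the gene on each side, 1187 kb in all, islands were denser beyond the 3′ end than beyond the start. The 3′ flank was 25.8%, 28.3%, 31.0% and 17.2% covered in control replicates 1 to 4, a mean of 25.6% ± 5.93 (n = 4). In P38i it was 26.7% ± 5.58, from 18.6 to 31.4%. It was 14.7% ± 7.05 in EPZ, where replicate 4 had 25.1% and the others 9.89 to 12.8%, and 13.5% ± 5.45 in combo, from 7.84 to 20.3% (n = 4). EPZ replicate 4 and combo replicate 3 thus lay in the range of the libraries without the inhibitor, which was 17.2 to 31.4%. The flank on the side of the start was covered at 3.73% ± 1.57 in control, 2.95% ± 0.712 in P38i, 2.5% ± 1.46 in EPZ and 2.61% ± 1.03 in combo, and these ranges overlapped. With the EZH2 inhibitor the 3′ flank differed by -12.0 points and the other flank by -0.784 points, described without a test for the reason given above. In steps of 50 kb, coverage was highest from 350 to 250 kb beyond the MEF2C start on the 3′ side, at 56.9% and 54.7% without the inhibitor and 34.0% and 31.0% with it. On the other side of the start, the first 50 kb were covered at 20.6% without the inhibitor and 8.9% with it. The next 50 kb there were covered at 11.445% and 11.45%. Farther than 120 kb on that side lay 6 islands in 4 libraries with the inhibitor, and 0 in libraries without it. That limit was not planned and lies just past an island of control replicate 2 that reaches to 118 kb, so the 0 follows from its place. How often other regions show such a split was not counted, and nothing is read from it.

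Over both flanks without the gene window, libraries with the p38 inhibitor had 114 ± 42.7 kb in islands and those without it 116 ± 46.5 kb (SD, n = 8), a difference of -1.73 kb (2-sided exact permutation test over 12870 arrangements, p = 0.941). The number of islands in the 1187 kb was 26.2 ± 8.0 with the p38 inhibitor and 24.4 ± 5.66 without it (exact p = 0.621), and the median island width was 4.26 ± 1.07 kb against 4.67 ± 1.554 kb (exact p = 0.551). Adjusted over these 3 tests, p was 0.941, 0.932 and 0.932. The arrangements took no account of the EZH2 inhibitor, so the spread they use includes its difference and is wider than that between replicates. When signs were flipped within same-numbered pairs alike in EZH2 inhibitor state, exact p was 0.844, 0.469 and 0.484. No difference in layout around MEF2C was detected with the p38 inhibitor by either test, and a small one could have been missed. With the EZH2 inhibitor the same stretch held 20.1 ± 4.29 islands against 30.5 ± 4.24 without it, and 82.9 ± 30.9 kb in islands outside the gene window against 147 ± 26.9 kb (n = 8).

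The 1 protein-coding neighbour in the stretch, TMEM161B, had no island in any library. The non-coding genes named next were picked after their values were seen, and their coverage is of the gene span alone, without the 2.5 kb flanks (MEF2C measured so had 13.1% in control). MIR9-2HG, the host gene of the neuronal microRNA miR-9-2, lies on the 3′ side of MEF2C (88538266 to 88691041) and was covered at 39.8% ± 9.76 in control, 38.2% ± 7.26 in P38i, 23.5% ± 11.5 in EPZ and 19.5% ± 8.24 in combo (n = 4). The microRNA hairpin inside it had no island in any library. MEF2C-AS2 (88676218 to 88722831), which overlaps the 3′ end of MEF2C, was covered at 34.5% ± 11.4 in control, 39.2% ± 14.6 in P38i, 11.6% ± 5.78 in EPZ and 12.4% ± 13.6 in combo. MEF2C-AS1 (88883330 to 89467581), which runs from the MEF2C start region outward, stood at 3.71% ± 1.01 in control, 3.12% ± 0.430 in P38i, 2.53% ± 1.94 in EPZ and 2.302% ± 0.986 in combo, with the 4 ranges overlapping. These 3 genes overlap or adjoin MEF2C and share islands with it or with each other, so they are not separate observations.

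**Figure D3:**
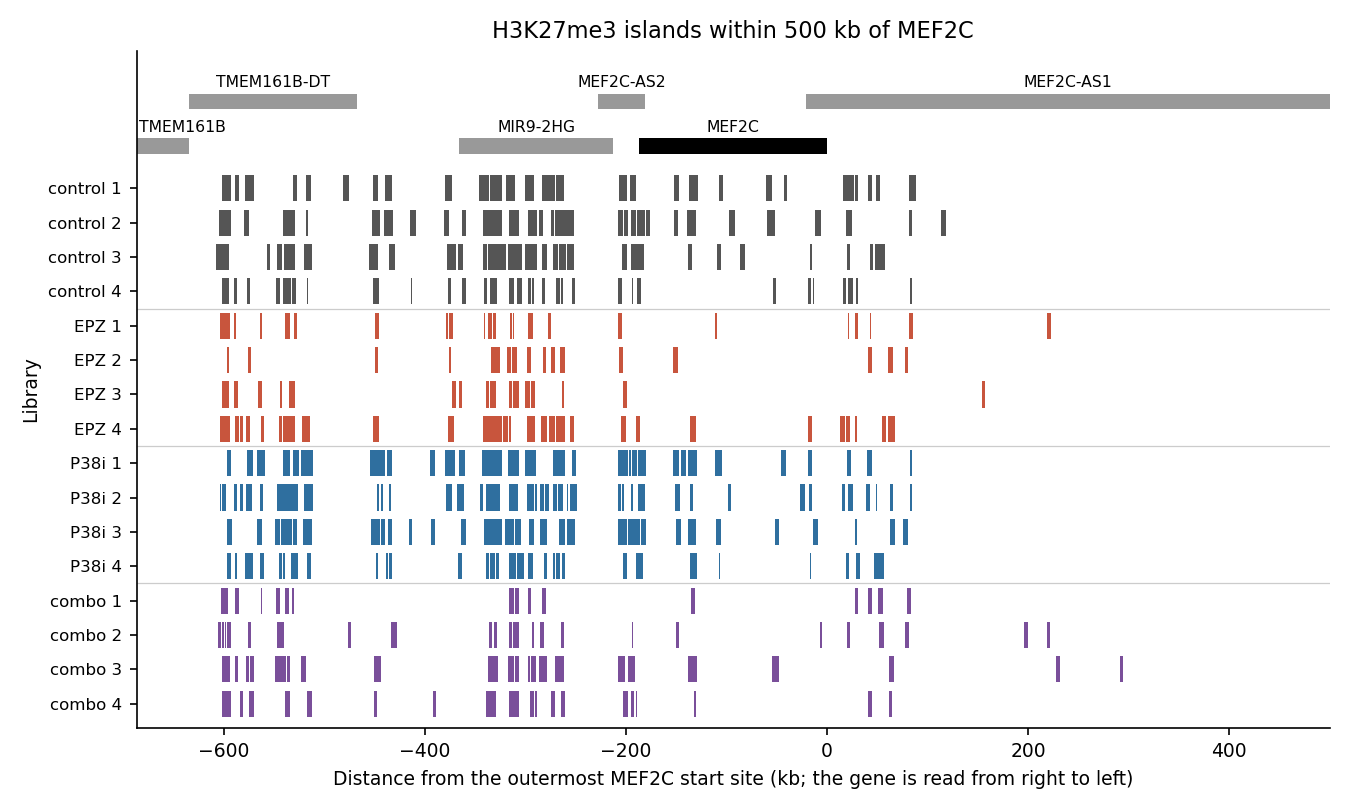
Islands (blocks) in each of the 16 libraries over MEF2C and 500 kb on each side, by distance in kb from the outermost MEF2C start, with 6 genes of the stretch above. Blocks crowd on the left, over MIR9-2HG and TMEM161B-DT, and are few on the right, over MEF2C-AS1.

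The other MEF2 genes were clear of islands, at different distances. For MEF2D the nearest island lay 20.1 kb away in the median library, between 18.7 and 21.5 kb in all 16, and the groups had nearly the same values. For MEF2A it lay 60.3 to 93.7 kb away, with combo replicate 3 farthest, and for MEF2B 56.9 to 80.1 kb. BORCS8-MEF2B, a readthrough gene whose span contains that of MEF2B, had no island either. Because these 3 genes were under the 5% minimum they entered no fit, and no difference between groups can be given for their coverage.

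Their surroundings did carry islands. Within 500 kb of MEF2A, 9.14% ± 0.876 was covered in control, 9.49% ± 0.724 in P38i, 6.82% ± 1.12 in EPZ and 7.16% ± 0.354 in combo (n = 4). Each of the 8 libraries with the EZH2 inhibitor lay between 5.54 and 8.18%, and each of the 8 without it between 8.36 and 10.4%. Of 19137 genes with an island within 500 kb, 253 (1.32%) had all 8 libraries with the inhibitor below all 8 without it, beside the lower covered length of the former (546 against 605 Mb), whose part in the values around MEF2A was not tested. Around MEF2D it was 5.69% ± 1.75 in control, 9.77% ± 1.90 in P38i, 4.87% ± 1.34 in EPZ and 7.36% ± 1.77 in combo. P38i replicates 1 to 4 had 9.12%, 9.91%, 12.3% and 7.75% there, and control replicates 8.16%, 5.38%, 4.05% and 5.17%, so the groups overlapped at P38i replicate 4 and control replicate 1. Around MEF2B, in a gene-dense part of chromosome 19, coverage was 0.410 to 1.87% in every library. Around MEF2C the same measure, gene included, was 14.5% ± 3.48 in control and 15.0% ± 3.12 in P38i, 7.62% ± 3.87 in EPZ and 7.35% ± 2.46 in combo. In control the order was thus MEF2C, MEF2A, MEF2D and MEF2B, and the ranges of MEF2C and MEF2A touched, at 9.35% and 10.4%. Differences between groups around MEF2A, MEF2B and MEF2D were not tested.

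**Figure D4:**
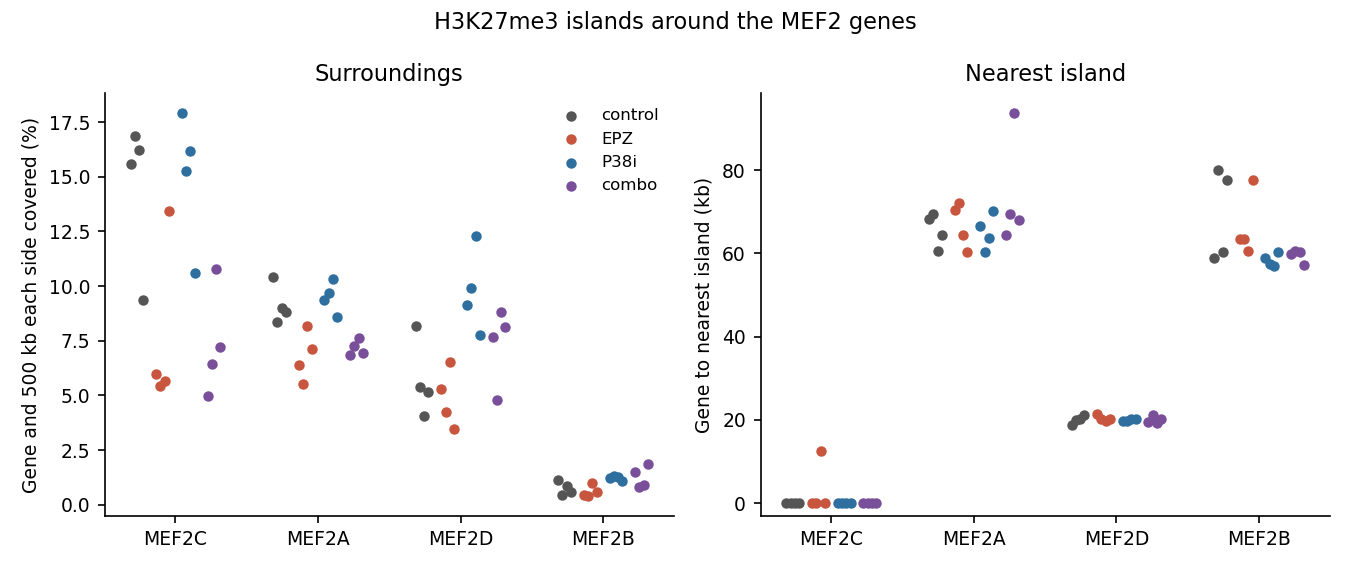
Left, percent of each MEF2 gene and 500 kb on each side that islands covered, with 1 point per library and groups by colour. Right, distance in kb from the gene to the nearest island. MEF2C stands at 0 kb in 15 of 16 libraries, MEF2D near 20.1 kb, and MEF2A and MEF2B beyond 56 kb.

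Of 2580 genes of 100 to 300 kb, 1459 had no island in any library, beside 13584 of all 19974 genes. A lower mean coverage than that of MEF2C (8.95%) was found in 73.5% of the 2580, genes without islands included. The 729 of them that were tested had a median of 44.7%, so MEF2C stood low among the tested genes of this length. Some genes followed MEF2C closely across the 16 libraries. The 5 with the highest Pearson correlation among the 4104 other tested genes, none within 1 Mb of MEF2C, were SCN1A (r = 0.96), FOXP2 (r = 0.94), CFAP299 (r = 0.94), CFAP206 (r = 0.94) and PKIB (r = 0.93), where the median over all was 0.41 and 340 genes exceeded 0.8. SCN1A, a voltage-gated sodium channel of neurons, stood at 37.7% ± 10.5 without the EZH2 inhibitor and 14.1% ± 4.12 with it (n = 8). FOXP2, a forkhead transcription factor of the nervous system, stood at 14.1% ± 5.97 and 3.67% ± 2.26, close to the level of MEF2C. PKIB, which encodes a protein kinase A inhibitor, stood at 37.3% ± 12.7 and 18.6% ± 5.50. These correlations are over libraries grouped by treatment that also differ in covered length, so they describe likeness only. MEF2C was chosen by its fall with the EZH2 inhibitor, so genes picked for following it will tend to fall as well. Their lower coverage with the inhibitor is therefore not read as a result.

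Most listed genes of the p38 and MEF2 system had no island in any library, as did 13584 of the 19974 protein-coding genes. The counts below are therefore not read as a trait of these lists. Of 29 p38 pathway genes, from kinases to phosphatases and substrates, 25 had no island in any library, MAPK14 and MAPK11 (p38 alpha and beta) among them. EZH2 and EZH1 had none either. MAPK13 (p38 delta) had 2.21%, 8.53%, 0.11% and 2.21% in combo replicates 1 to 4 and 0 in the other 12 libraries. It was under the minimum for testing. These values include the 2.5 kb flanks, and whether the islands reach the gene itself was not examined. Of the 6390 genes with any island, MAPK13 was the 1 (0.0156%) with islands in all combo libraries and in no other. That pattern was counted after its values were seen, so nothing is read from its rarity. MAP3K7, which encodes the kinase TAK1, had 0.219% in control replicate 3, 1.49% in P38i replicate 3 and 0 elsewhere. The members that could be tested were 2. MAP2K6, the kinase MKK6 that phosphorylates p38, was covered at 76.8% ± 10.7 in control, 70.2% ± 14.9 in EPZ, 78.9% ± 4.54 in P38i and 69.7% ± 13.0 in combo (n = 4). It passed no contrast (adjusted p = 0.342 for the EZH2 inhibitor and 0.961 for the p38 inhibitor, limma). GADD45G, which encodes a stress protein that can switch on the p38 cascade, stood at 17.2% ± 5.13 in control, 7.30% ± 8.52 in EPZ, 10.9% ± 6.60 in P38i and 11.7% ± 7.02 in combo, and passed no contrast. The median difference of these 2 genes with the EZH2 inhibitor was -6.24 points, against -4.84 points over all tested genes.

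Of 38 kinases, phosphatases and partners of MEF2, 23 had no island, where 13584 of all 19974 genes had none, and 8 could be tested. With the EZH2 inhibitor 1 of the 8 fell and 0 rose, where 15.6% and 0.877% of all tested genes did, and with the p38 inhibitor 0 passed. The median difference was -4.44 points with the EZH2 inhibitor and 4.97 points with the p38 inhibitor, against -4.84 and 3.04 points over all tested genes. GATA4, a zinc finger factor that works with MEF2C in the heart, was the gene that fell. Its coverage in replicates 1 to 4 was 43.6%, 42.9%, 36.1% and 26.1% in control, 15.7%, 23.6%, 16.8% and 26.1% in EPZ, 43.8%, 38.4%, 52.0% and 19.7% in P38i, and 22.0%, 22.0%, 36.3% and 25.2% in combo. Control replicate 4 and P38i replicate 4 lay among the libraries with the EZH2 inhibitor, and combo replicate 3 lay among those without it. The 8 libraries with the EZH2 inhibitor had 23.5% ± 6.38 and the 8 without it 37.8% ± 10.4 (difference -14.3 points, adjusted p = 0.0435 in limma). This call was lost in 16 of 24 alternatives (adjusted p from 0.00661 to 0.197 over all). The difference was smaller when covered length entered the fit (-7.16 points, adjusted p = 0.182) and with lists of equal covered length (-9.49 points, adjusted p = 0.197), and in the other 14 it stayed between -12.1 and -14.9 points.

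NFATC4, a calcium-regulated partner of MEF2, stood at 44.2% ± 20.2 in control, 28.8% ± 13.2 in EPZ, 48.0% ± 12.6 in P38i and 48.9% ± 15.6 in combo (n = 4). MYOD1, the muscle-determining factor that acts with MEF2, stood at 43.4% ± 9.56, 35.2% ± 11.2, 52.3% ± 2.36 and 29.0% ± 21.5 in the same order. MYOCD, which encodes the cofactor myocardin of heart and smooth muscle, stood at 31.5% ± 17.8, 35.2% ± 14.5, 33.7% ± 6.64 and 39.9% ± 9.47. None of these 3 passed a contrast, with an adjusted p of 0.528, 0.10 and 0.611 for the EZH2 inhibitor.

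Of 24 genes known as MEF2 targets, 13 had no island (over all genes, 13584 of 19974). The 6 that could be tested passed no contrast. Their median difference was -4.14 points with the EZH2 inhibitor and 6.84 points with the p38 inhibitor, beside -4.84 and 3.04 points over all genes tested. HDAC9 and MYOG stand in 2 lists each. MMP10, a matrix metalloproteinase, was covered almost whole, with 100% in all control libraries and 97.0% ± 3.48 in combo, above the maximum of 95% for testing. SMYD1, a methyltransferase of striated muscle, stood at 75.9% ± 7.09 in control, 68.5% ± 7.62 in EPZ, 83.7% ± 6.30 in P38i and 69.9% ± 21.5 in combo. MYH6, the alpha myosin heavy chain of the heart, stood at 55.4% ± 19.3, 55.6% ± 13.9, 76.3% ± 15.4 and 69.2% ± 16.0 in the same order, and the p38 inhibitor difference of 17.3 points did not pass (adjusted p = 0.352). PPARGC1A, a coactivator of mitochondrial genes, stood at 41.0% ± 6.11, 35.5% ± 4.36, 41.0% ± 4.66 and 36.9% ± 3.09.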

How the data were processed

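H3K27me3 ChIPmentation in 16 libraries (4 per group) was analysed and the 16 IgG libraries were not analysed here. Per the submitters' processing notes, the authors worked on hg38 with SICER, Bowtie2 2.3.4.1, SAMtools 1.2, bedtools 2.28.0, FastQC, Picard, cutadapt and Trim Galore. The order of steps and SICER's settings: not given in the sources used here. Each deposited file holds island starts and ends on windows of 200 bp. Ends were read as the last base.

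Autosomal and X-linked islands entered. Coverage of each RefSeq protein-coding gene (GRCh38.p14) and 2.5 kb on each side was computed and checked against bedtools 2.31.1 over 500 genes (largest difference 0). The 4105 genes with a mean coverage of 5 to 95% were fitted with limma 3.58.1 in R 4.3.3 (trend, robust, 1 fit of 16 libraries, Benjamini-Hochberg within each contrast, threshold 0.05), which was tested on simulated data. Layout within 500 kb was compared by exact permutation over all 16 libraries, without regard to the EZH2 inhibitor. Scripts ran in Python 3.11.15 (scipy 1.17.1, pandas 2.3.3, matplotlib 3.10.9, numpy 2.4.6).

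The members and gene lists were chosen with earlier results of these data known. Genes named were the MEF2 genes, protein-coding neighbours, the 5 most alike genes, and, per list of p38 pathway, MEF2 partners, MEF2 targets and inhibitor targets, called genes and up to 4 with the highest coverage.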

Additional observations from a re-analysis of the deposited data

Results flagged for a closer look

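Dixon's test marks a library that stands apart from the other 3 of its group, and by chance alone it marks about 1 in 20 groups. Of 128 groups of 4 examined, 9 held such a library. The 128 include groups whose values are all equal, such as the coverage of MEF2A, MEF2B and MEF2D, which cannot be marked. The rate of 1 in 20 therefore does not apply to all of them. In MEF2C coverage it was combo replicate 3, at 8.23% where the others had 1.35 to 2.40%. The nearest island to MEF2C was 12.5 kb away in EPZ replicate 3, which had none over the gene. It was marked because the other EPZ libraries all stood at 0 kb. EPZ replicate 4 stood apart within 500 kb of MEF2C, with 13.4% covered and 146 kb in islands outside the gene window. In the same stretch P38i replicate 2 had 40 islands where the other P38i libraries had 30 or 31, and control replicate 1 had 6.07% of the flank beside the MEF2C start covered. Among other genes, P38i replicate 4 had 34.1% for PPARGC1A, EPZ replicate 4 had 26.99% for CFAP206 and combo replicate 2 had 45.4% for MYH6.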

How the results depend on the processing

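Depth limits every value, since it is unknown and no island has a score. The MEF2C difference with the EZH2 inhibitor kept its direction in 22 of 23 alternatives and moved by more than the within-group SD of 5.31 points in 2, to -2.73 points with lists of equal covered length and to 0 in a window around the outermost gene start, where no library had an island. The p38 inhibitor results on MEF2C passed in none of their alternatives. With covered length as a covariate the p38 main effect was -0.43 and combo minus EPZ -1.25 points, and after an arcsine transformation the interaction was 0.013, on that scale. Leaving out 1 library at a time, the p38 main effect ran from 0.29 (without control replicate 4) to 3.19 points (without control replicate 2), P38i minus control from -0.38 (without control replicate 4) to 5.42 points (without control replicate 2), combo minus EPZ from -0.60 (without combo replicate 3) to 2.43 points (without EPZ replicate 4) and the interaction from -4.45 (without control replicate 2) to 1.35 points (without control replicate 4), turning positive also without EPZ replicate 4 or P38i replicate 1. In the stretch around MEF2C, lists of equal covered length turned the island number to -4.88 and the median width to 0.775 kb, and moved covered length from -1.73 to -15.4 kb (exact p = 0.308). Leaving out 1 library, covered length ran from -9.67 (without EPZ replicate 2) to 6.69 kb (without combo replicate 1). Island number ran from -0.089 (without P38i replicate 2) to 3.48 (without combo replicate 1), and median width from -0.738 (without EPZ replicate 1) to -0.109 kb (without control replicate 1). These layout values are plain means of the libraries on each side. Leaving out 1 library therefore also unbalances the EZH2 inhibitor between the sides, and the shifts cannot be given to the p38 inhibitor alone. The MEF2C fits above use group means and are not comparable with them in this. MEF2C could not be tested with lists of equal covered length or at the gene start, where its mean was under 5%.

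Counts of genes called moved as follows. For the EZH2 inhibitor the 678 became 387 with the covariate, 168 with equal lists and 44 at gene starts, and 420 (without P38i replicate 3) to 926 (without control replicate 4). For the p38 main effect the 5 became 3 with no flank, 15 with a flank of 5 kb, 8 with no filter, 3 with the covariate, 2 with islands of at least 2 kb, 0 with equal lists and 0 at gene starts, and 3 to 32 (without control replicate 1) without 1 library. For the interaction the 2 became 5 with no filter, 1 with the replicate block, 1 with islands of at least 2 kb and 0 with equal lists or at gene starts, and 0 to 4 (without control replicate 3 or P38i replicate 2) without 1 library. For P38i against control the 12 became 21 with a flank of 5 kb, 21 with no filter, 6 with the covariate, 4 with equal lists, 4 at gene starts and 0 in a fit of the 2 groups, and 5 (without P38i replicate 3) to 31 (without control replicate 1). For combo against EPZ the 0 became 3 in a fit of the 2 groups, and 0 to 2 (without EPZ replicate 4) without 1 library. The cause of these changes was not tested.

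The labels do not say what libraries with the same replicate number share beyond that number. Deviations from group means correlated from -0.15 to 0.18 for same-numbered pairs and from -0.20 to 0.16 for others. With the replicate block the p38 main effect on MEF2C was 1.58 points (adjusted p = 0.835). The GATA4 difference stayed at -14.3 points with it, with the adjusted p just past the threshold (0.0543).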
